A study of Mus musculus with 12 samples.

Results

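The short autosomal H4K20me3 domains of mouse embryonic stem cells were examined: the intervals on chromosomes 1 to 19 that start at or after 3 Mb and are under 1 kb wide. They were chosen by their width alone, as given in the study's deposited domain list, and numbered 2053 of 28210 domains in the list and of 25730 autosomal domains past the first 3 Mb. The other 23677 autosomal domains, of 1 kb or wider, served as the comparison.

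The cells were ES cells of the line dTKO, which is 1 line with the genotype Suv39h1fl/fl, Suv39h2-/- and Setdb1fl/fl, grown with serum and LIF, the cytokine that keeps them undifferentiated. All 12 libraries came from this genotype, so the list has no wild-type counterpart. Cells were taken at 0, 12, 24 and 48 h after auxin (100 μg/ml) and dTAG13 (0.5 μM), with 3 biological replicates at each time, and chromatin was precipitated with an H4K20me3 antibody. The list names no library and no time and carries no signal, so the depth behind a domain, its decay and its replicate error are unknown here. Every value below is a description of that 1 set of positions, no test of a difference was made, and domains of 1 list are not replicates. For the main comparisons of short and wider domains, the number of the 19 autosomes that show the direction is given in place of a test. The other comparisons were not counted by autosome.

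H4K20me3 is a histone mark of constitutive heterochromatin. It is placed mainly by the KMT5B and KMT5C enzymes, which are brought to chromatin by HP1 proteins bound to H3K9me3, and so lies downstream of the H3K9 methyltransferases SUV39H1, SUV39H2 and SETDB1. In embryonic stem cells the mark is known from pericentromeric repeats, telomeres and endogenous retroviruses, which are silenced by SETDB1 together with TRIM28 and zinc finger proteins.

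Among the sequences under these narrow intervals, the annotated gene starts are the ones that a sequence table of the same build covers. A start window runs from 250 bases before to 50 bases after an annotated start, 300 bases in all. Only 30 of 31365 such autosomal windows shared a base with a short domain, against 563 with a wider one and 593 (1.89%) with a domain of any width. Just 7 windows lay wholly inside a short domain, and 3 of the protein-coding ones are printed from RefSeq (GRCm38.p6, which is mm10), since they show how unlike these starts are in base composition. Each is written 5′ to 3′ along its gene, with every CG dinucleotide in capitals.
Dazl, chr17:50293571-50293870, minus strand: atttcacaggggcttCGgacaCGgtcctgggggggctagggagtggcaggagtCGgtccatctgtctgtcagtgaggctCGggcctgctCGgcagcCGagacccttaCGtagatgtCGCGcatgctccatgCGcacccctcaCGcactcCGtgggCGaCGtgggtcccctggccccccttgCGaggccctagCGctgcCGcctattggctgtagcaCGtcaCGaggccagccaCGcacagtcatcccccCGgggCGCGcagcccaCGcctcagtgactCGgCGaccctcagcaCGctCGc
Vmn1r47, chr6:90021638-90021937, plus strand: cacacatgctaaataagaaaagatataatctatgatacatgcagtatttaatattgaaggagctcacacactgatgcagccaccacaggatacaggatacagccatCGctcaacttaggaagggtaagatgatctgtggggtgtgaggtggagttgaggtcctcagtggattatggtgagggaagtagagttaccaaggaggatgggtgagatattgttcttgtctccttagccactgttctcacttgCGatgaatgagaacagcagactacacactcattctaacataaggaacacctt
Sgo2a, chr1:57985090-57985389, plus strand: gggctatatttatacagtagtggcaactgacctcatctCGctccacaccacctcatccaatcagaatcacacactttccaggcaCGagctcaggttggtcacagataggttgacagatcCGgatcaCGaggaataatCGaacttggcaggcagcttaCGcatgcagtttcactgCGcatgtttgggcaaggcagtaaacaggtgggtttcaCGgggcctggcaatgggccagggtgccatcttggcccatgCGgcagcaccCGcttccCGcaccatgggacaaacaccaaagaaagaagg

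The Dazl window, which belongs to a germ cell RNA-binding protein gene, held 28 CG dinucleotides and 68.7% G+C under a domain of 900 bases (50293051 to 50293950 on chromosome 17). Vmn1r47 encodes a vomeronasal pheromone receptor, and its window held 2 CG dinucleotides and 43.3% G+C under a domain of 750 bases that also covered 49.6% of the gene body. Sgo2a encodes a shugoshin, a protector of centromeric cohesion in meiosis. Its window held 11 CG dinucleotides and 54.0% G+C under a domain of 750 bases. The other windows wholly inside a short domain were those of Ccdc91 and of the noncoding genes Gm6288, Gm52299 and 4930481A15Rik. Ccdc91 and Gm6288 are opposed, and their windows share 1 domain of 900 bases on chromosome 6.

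Over all 30 windows touched by a short domain the median was 14.5 CG dinucleotides, against 5 in the 563 touched by a wider domain and 7 in all 31365. Protein-coding starts are richer in CG in general and made up 22 of the 30, but only 230 of the 563. Within protein-coding windows the medians were 15.5 under short domains, 7 under wider ones and 14 over all 20055, so the short domains stood close to the background and the wider ones below it. The 22 windows belonged to 21 genes, among them Eef1a1, Alb, Mkrn3, Ube2k, Cd200, Riox2, Sptlc1 and Tktl2. Alb, the serum albumin gene, had its start under a domain of 150 bases, the narrowest width in the list, and no other domain in its body. Eef1a1, which encodes the main translation elongation factor, had its start under a domain of 300 bases. A search for 3 motifs on both strands found CACGTG, which is its own reverse complement, in 3 of the 30 windows, TCCCGC in 2 and TATAAA in 4. Over all windows the shares were 7.14%, 20.2% and 13.6%. The first 2 motifs each contain a CG, so they are counted in the CG numbers too.

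In width the short domains were 1 to 6 steps of the 150-base grid on which all autosomal boundaries lie. Their counts climbed with width, from 33 at 150 bases and 92 at 300 bases through 222, 394 and 564 to 748 at 900 bases. The median was 0.75 kb, against 3 kb for wider domains. Just inside the limit stood the 748 domains of 900 bases, and just outside stood 788 of 1050 bases, so the limit cuts a continuous distribution. Short domains made up 7.98% of autosomal domains by number but 1.44% of autosomal domain sequence, 1.47 of 101.9 Mb.

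**Figure D1:**
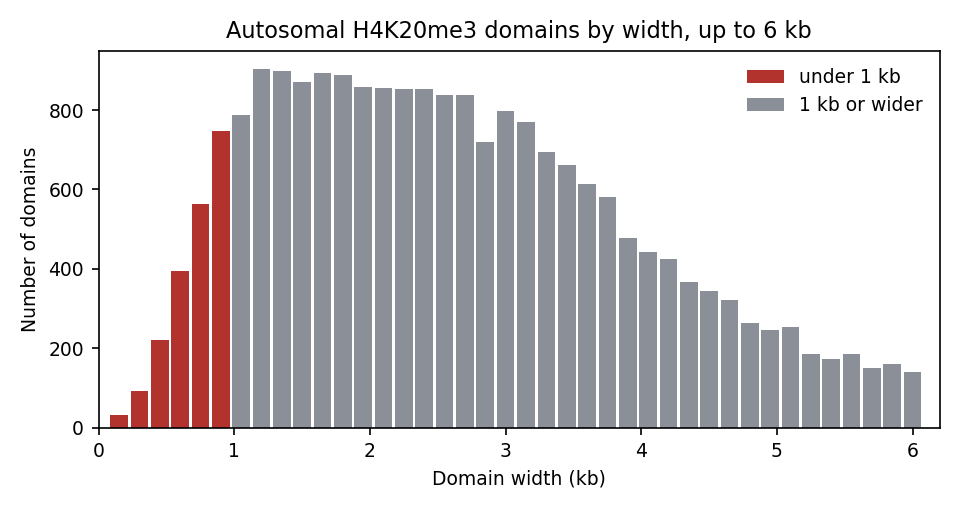
Number of autosomal H4K20me3 domains (vertical axis) at each width up to 6 kb (horizontal axis, kb), with the 2053 domains under 1 kb in red and wider ones in grey. Counts rise steadily from 33 domains at 150 bases to 748 at 900 bases, with no gap at the 1 kb limit.

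Short domains were found on every autosome, at similar density. They numbered 44 on chromosome 19 to 181 on chromosome 1, or 0.685 per Mb on chromosome 18 to 1.24 per Mb on chromosome 8, with a median of 0.838. Their share of a chromosome's domains ran from 6.08% on chromosome 6 to 11.1% on chromosome 11, and chromosome 8 (10.6%) and chromosome 2 (9.87%) came next to the top. Chromosome 11 had the fewest domains of any width per Mb, 7.63, while its short domains, at 0.849 per Mb, were near the median. Along the chromosome, short domains were spread more evenly than wider ones. Of 10 equal parts of each autosome, the one nearest the centromere held 11.9% of short and 14.9% of wider domains, and the most distal one held 8.96% and 7.30%. Within such a part the share of domains that were short was lowest nearest the centromere, at 6.50%, and highest at the far end, at 9.62%.

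The first 10 Mb of sequence held 186 short domains, or 9.06%, against 11.6% of wider domains and 11.4% of all autosomal domains. Short domains had the lower share on 14 of 19 autosomes, the exceptions being chromosomes 3, 8, 12, 15 and 17. Against domains of 1 to 2 kb alone short domains were lower by 0.925 percentage points, and the shares climbed from 9.99% at 1 to 2 kb to 16.1% at 10 kb or wider. Windows dense in domains held a smaller share of short domains than of wider ones. Of short domains, 427 (20.8%) lay in 1 Mb windows with 20 or more domains, against 27.9% of wider and 27.3% of all autosomal domains, and the direction held on 16 of 19 autosomes, not on 4, 15 and 16. The share climbed with width to 36.6% at 10 kb or wider, and the difference from domains of 1 to 2 kb was 3.04 percentage points.

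Most short domains had wider domains on both sides, as most wider domains did, and their gap to the nearest domain was longer. The median gap to the nearest domain of any width was 25.5 kb (quartiles 9.75 and 66.2 kb), 1.33 times the median of wider domains, whose quartiles were 7.35 and 45.5 kb. The gap was longer for short domains on 17 of 19 autosomes, with chromosomes 8 and 15 as exceptions, and it shortened through each width class, to 12.9 kb at 10 kb or wider. Measured between midpoints, which includes part of the widths of both domains, the medians were 27.7 kb for short and 23.3 kb for wider domains. The midpoint distance did not shorten through every class, with 20.85 kb at 5 to 10 kb and 23.4 kb at 10 kb or wider. A gap under 5 kb was found for 290 short domains (14.1%), against 17.5% of wider and 17.2% of all autosomal domains. Of these 290, the near neighbour was short in 26 and wider in 264, with a median width of 3.00 kb, and only 21 had a domain within 5 kb on both sides. Conversely, 314 short domains (15.3%) had no other domain within 100 kb, against 9.58% of wider ones. The nearest neighbour of a short domain was thus rarely close, and it had the usual width: 127 of 2053 nearest neighbours (6.19%) were 10 kb or wider, against 6.98% for wider domains.

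Short domains seldom ran in series, though a short nearest neighbour was slightly more frequent than among wider domains. In 191 cases (9.30%) the nearest neighbour was itself short, against 7.61% for wider domains and 7.74% for all, and the share was higher for short domains on 12 of 19 autosomes. Counted along the chromosome, 1701 short domains (82.9%) had a wider domain or a chromosome end on both sides. A wider domain lay on both sides of 82.8% of short domains, against 84.8% of wider and 84.6% of all autosomal ones. There were 150 runs of 2, 16 runs of 3 and 1 run of 4. The run of 4 spread over 242.0 kb of chromosome 1 (105838501 to 106080450), with widths of 750, 450, 750 and 450 bases, across Tnfrsf11a, the receptor of the osteoclast factor RANKL, and Zcchc2. The tightest run of 3 took 9.15 kb inside Sntg1 (chromosome 1, 8889001 to 8898150). The next took 46.5 kb on chromosome 16 (46229551 to 46276050), in a stretch with no annotated gene, with Gm4737 the nearest protein-coding gene at 97.7 kb from its middle.

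At the other extreme were single short domains with no neighbour over a long distance. The most isolated, 900 bases on chromosome 11 (68308951 to 68309850), lay 773.7 kb from any other domain, inside Ntn1, which encodes the axon guidance factor netrin-1. The next, 750 bases on chromosome 6 (113769301 to 113770050), lay 728.2 kb from any other, inside Atp2b2, a plasma membrane calcium pump gene. A domain of 900 bases on chromosome 2 (121386901 to 121387800) stood 584.9 kb from the nearest and 4.28 kb from Catsper2, a sperm calcium channel gene. One on chromosome 18 had a gap of 584.2 kb and lay 35.6 kb from Gnpda1, and one of 600 bases on chromosome 14 (64380151 to 64380750) had a gap of 552.6 kb and lay inside Msra, a methionine sulfoxide reductase gene. Of these 5, 3 lay inside a protein-coding gene, beside 24.7% of all short domains, and a count among 5 says little.

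Short domains fell in genes more often than wider ones, though still less often than the sequence share of genes. The midpoint lay in a protein-coding gene body for 508 of 2053 short domains, 24.7% (95% exact binomial interval 22.9 to 26.7%, which covers counting only), against 18.97% (18.5 to 19.5%) of wider and 19.4% of all autosomal domains. Gene bodies of this kind took 40.9% of the autosomes past 3 Mb, and on each of the 19 autosomes the short domains stayed below that share. They exceeded wider domains on 15 of 19, from 33.8% against 17.8% on chromosome 17 to the reverse order on chromosomes 1, 14, 15 and 18, where chromosome 18 had 13.3% against 16.7%. The share fell through the width classes, with 21.5% at 1 to 2 kb, 19.22% at 2 to 5 kb, 16.0% at 5 to 10 kb and 14.9% at 10 kb or wider. Against domains of 1 to 2 kb alone the difference was thus 3.23 percentage points in place of 5.78.

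Among the short domains themselves the narrowest were most often genic. The midpoint lay in a protein-coding gene for 19 of 33 domains of 150 bases (57.6%), 30 of 92 of 300 bases (32.6%), 71 of 222 of 450 bases (32.0%), 105 of 394 of 600 bases (26.6%), 136 of 564 of 750 bases (24.1%) and 147 of 748 of 900 bases (19.7%). The fall stopped at the limit, since the 788 domains of 1050 bases gave 24.4%, so the 900-base domains taken alone did not exceed the next wider step. The median distance from the midpoint to the nearest end of a protein-coding gene was 14.1 kb at 150 bases and 67.1 kb at 900 bases. Over all short domains it was 53.3 kb, against 78.8 kb for wider ones, and the order held on 16 of 19 autosomes, not on 10, 12 and 14. That order did not run through all classes, because domains of 10 kb or wider lay nearer still, at 48.6 kb.

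**Figure D2:**
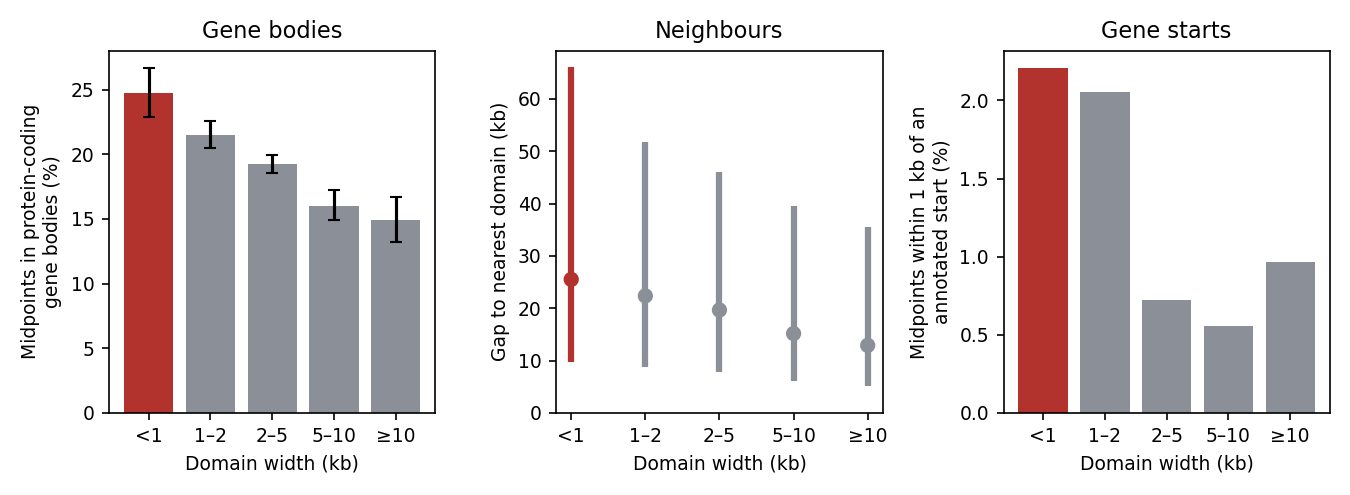
The 3 measures for domains grouped by width (horizontal axes, kb), with domains under 1 kb in red: share of midpoints in protein-coding gene bodies (percent, bars with 95% exact binomial intervals), gap to the nearest domain (kb, points for medians and lines for quartiles) and share of midpoints within 1 kb of an annotated start (percent). Domains under 1 kb had the highest share in gene bodies (24.7%) and the longest median gap (25.5 kb), and were close to domains of 1 to 2 kb at gene starts (2.21% and 2.05%).

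Outside protein-coding genes, 167 short domains (8.13%) had the midpoint in a long noncoding RNA gene, against 6.55% of wider ones, and 34 (1.66%) in a pseudogene only, against 1.78%. No annotated gene of any kind lay under 1326 midpoints (64.6%), against 71.9% for wider domains. Gene starts were rarely near. On the 18 autosomes with start windows, 44 of 1993 short domains (2.21%) had the midpoint within 1 kb of an annotated start, against 2.05% at 1 to 2 kb and 0.554 to 0.966% in the 3 wider classes.

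**Figure D3:**
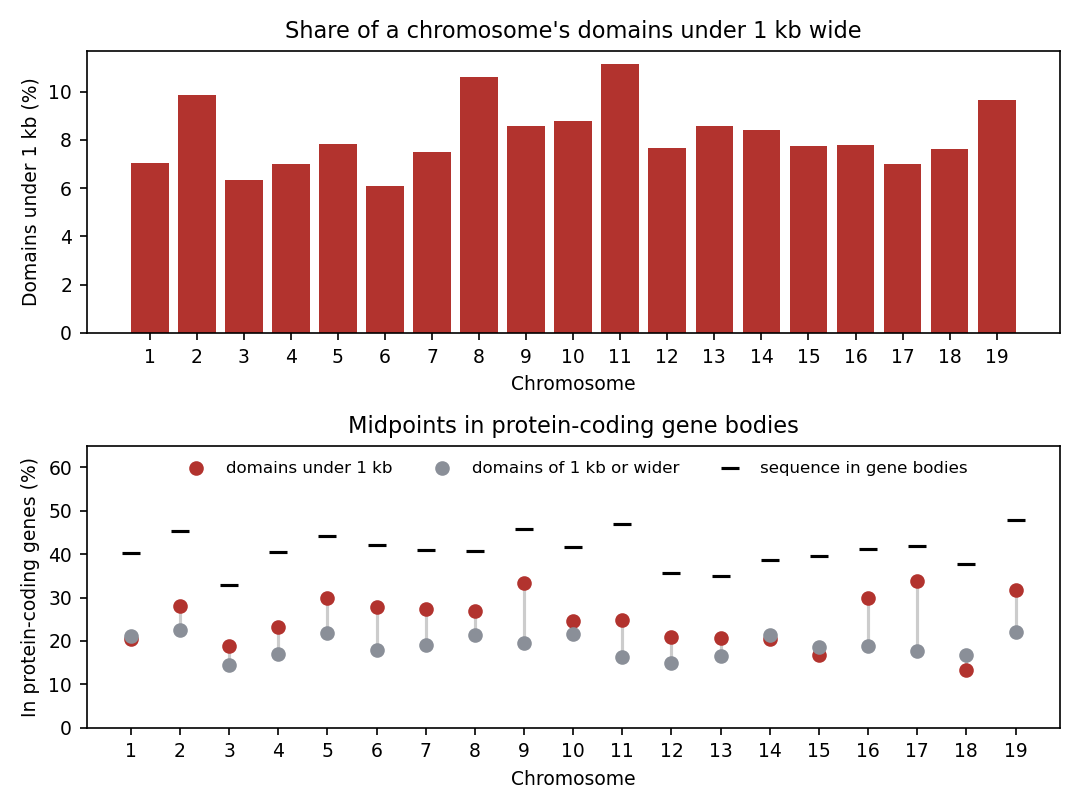
Upper panel: percent of each autosome's domains that were under 1 kb wide. Lower panel: percent of midpoints in protein-coding gene bodies for domains under 1 kb (red) and wider domains (grey), with a black dash for the percent of sequence in such bodies. The red points lie above the grey on 15 of 19 autosomes and below the dash on all 19.

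Counted by domain, with the longest gene at each midpoint, short domains lay in shorter genes than wider ones did. The median gene length was 130.2 kb (quartiles 41.4 and 390.1 kb) under the 508 genic short domains and 220.1 kb (75.6 and 535.8 kb) under the 4491 genic wider ones. Genes under 20 kb held 44 of the 508 (8.66%), against 4.88% of the 4491, and genes under 100 kb held 42.5% against 31.3%. The order was not a steady one, since domains of 10 kb or wider had a median of 138.3 kb, and it is the reverse when each gene is counted once, as given next. Along genes whose strand was known, 35 of 400 short domains (8.75%) lay in the first 10% of the body and 39 (9.75%) in the last 10%, close to an even spread.

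By gene, 469 of 20560 protein-coding genes (2.28%) held the midpoint of a short domain and 2381 (11.6%) that of a wider one. A domain of any width had its midpoint in 2607 of them (12.7%). Most of the 469 held a single short domain (439 genes), 21 held 2 and 9 held 3 or more. In 223 of the 469 no wider domain touched the gene at all, and these had a median length of 45.4 kb, against 120.8 kb for all 469, 99.5 kb for the 2381 with a wider domain and 17.6 kb for all protein-coding genes. The part of a gene that short domains covered was small, with a median of 0.510%, and it reached 10% of the body in only 13 genes.

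The 9 genes with 3 or more short domains were mainly very long ones, except Setdb1 (33.7 kb) and Fam227b (168.7 kb). Gata2 was listed with them as the densest of the 21 genes that held 2, which also included Zfp53 (44.3 kb). Sntg1, which encodes a syntrophin scaffold protein, held 6 short and 23 wider domains in 941.9 kb. Pcdh15, a protocadherin gene of inner-ear hair cells, held 5 short and 17 wider ones in 1554 kb. Marchf1, a membrane ubiquitin ligase gene, held 4 and 7. With 3 short domains each followed Fam227b (2 wider), the receptor tyrosine kinase gene Alk (7), the Slit receptor gene Robo1 (4), the reelin adaptor gene Dab1 (3) and the synaptic scaffold gene Magi2 (11). In these 8 genes short domains covered at most 1.16% of the body. The widths in these genes ran from 150 bases in Robo1 to 900 bases.

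Setdb1, one of the methyltransferase genes altered in this line, held more short domains per Mb than the long genes did. Its 33.7 kb body on chromosome 3 (95323525 to 95357202) held 4 short domains, or 119 per Mb, against 6.37 per Mb in Sntg1. Such a density depends on gene length, and it was higher in other compact genes. Gata2 (13.1 kb) had 152 per Mb, and Sox2 (2.47 kb), with 1 short domain, had 405. The 4 were 900 bases (95323951 to 95324850), 750 bases (95327101 to 95327850), 600 bases (95341351 to 95341950) and 600 bases (95346601 to 95347200). Between and beside them lay 2 wider domains, of 2.25 and 1.20 kb, the second at 95355901 to 95357100, by the start of this minus-strand gene. The short domains covered 8.46% of the gene. The first 2 of the 4 also close a run of 3 short domains on chromosome 3 whose first member, 750 bases at 95134051, touches the start window of Lysmd1. Suv39h2 (chromosome 2, 3455815 to 3474986), null in this line, held no domain of any width, and Suv39h1 lies on X and could hold no autosomal domain.

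**Figure D4:**
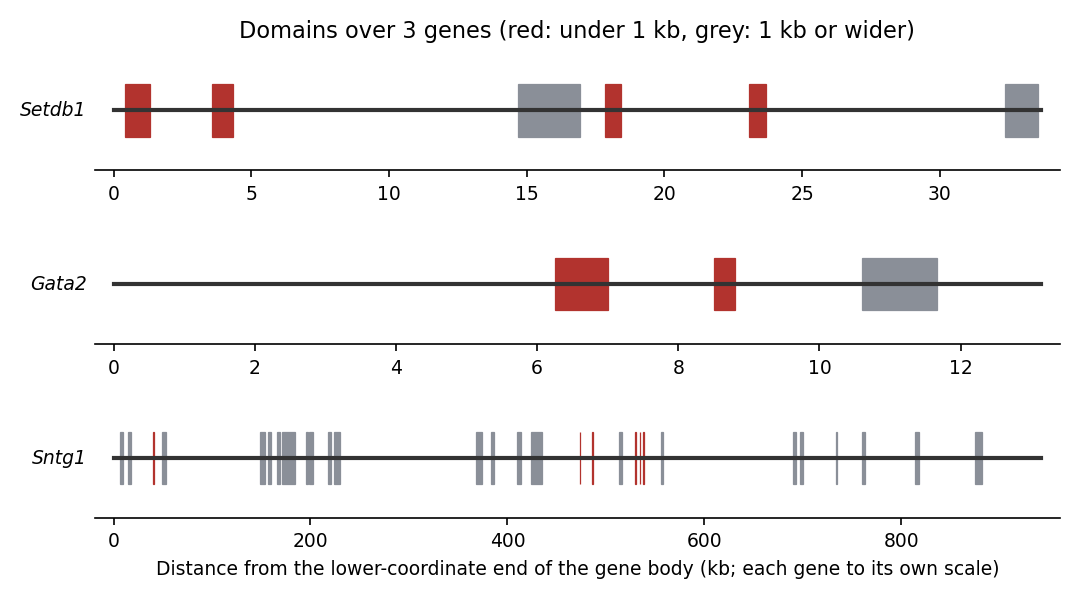
Domains drawn to scale over the bodies of Setdb1, Gata2 and Sntg1, each gene on its own axis of distance from its lower-coordinate end (kb), with domains under 1 kb in red and wider ones in grey. Setdb1 holds 4 short domains in 33.7 kb and Gata2 2 in 13.1 kb, while the 6 of Sntg1 are spread over 941.9 kb among 23 wider ones.

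Among 34 autosomal heterochromatin factors, writers and readers of H3K9 and H4K20 methylation and their partners, 3 held a short domain (8.82%, beside 2.28% of all protein-coding genes) and 3 a wider one (beside 11.6% of all). Beside Setdb1 the genes with a short domain were Zfp809 and Cbx1. The median length of the 34 genes was 35.8 kb, against 17.6 kb for all protein-coding genes, and the part of length was not tested. Zfp809, a zinc finger silencer of retroviral DNA in embryonic cells, held 1 domain of 750 bases and no wider one, in 28.5 kb. Cbx1, which encodes the HP1 beta reader of H3K9me3, held 1 domain of 300 bases near the upper-coordinate end of its body and 1 of 1050 bases.

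Lineage transcription factor genes are compact, with a median length of 6.34 kb. Of 54 such genes 3 held a short domain (5.56%, beside 2.28% of all protein-coding genes), Gata2 and Neurod1 among them, and 3 held a wider one (beside 11.6% of all). Gata2, a regulator of blood progenitors, held domains of 750 bases (88200151 to 88200900) and 300 bases (88202401 to 88202700), and a wider one of 1050 bases starting at 88204501 (chromosome 6). Neurod1, a neuronal factor gene, was covered over 18.8% of 4.00 kb by 1 of 750 bases (chromosome 2, 79453951 to 79454700). Of 34 pluripotency genes 1 held a short domain (2.94%, near the 2.28% of all), and 2 held a wider one (5.88%, beside 11.6%). The 1 was Sox2, covered over 36.5% of 2.47 kb by 900 bases (chromosome 3, 34650451 to 34651350). No Hox gene of 39 held a domain of any width, beside 12.7% of all protein-coding genes. Their median length was 3.74 kb, and for so few short genes finding none says little.

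Ranked by covered share over all protein-coding genes, the first 10 included these factors beside receptor and secreted protein genes. Olfr742, an odorant receptor gene of 1.12 kb on chromosome 14, was covered over 66.1% and Svs5, a seminal vesicle secretory protein gene of 1.63 kb, over 55.2%. These were the only 2 genes covered over at least 50%. Vmn1r47 (49.6%) and Cebpb (39.5%), the gene of a leucine zipper factor of adipocytes and macrophages, came next, before Sox2. Olfr740 (23.9%), Gm38481 (23.8%), Hirip3 (22.5%) and Neurod1 also belonged to the set. Each of the 10 met 1 short domain and no wider one. All were 4.00 kb or shorter, so that a domain under 1 kb makes up a large part of the body.

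Zinc finger genes, taken by symbol, held short domains about as often as protein-coding genes do: 9 of 423 (2.13%), with 49 (11.6%) holding a wider one. Zfp53 held 2 short domains and Zfp563 and Zfp72 1 each, none with a wider domain, and Zfp804b held 2 beside 8 wider ones. Olfactory receptor genes held a short domain in 3 of 1103 cases (0.272%, beside 2.28% of all protein-coding genes). These were Olfr742, Olfr740 and Olfr1428, none of which held a wider one. A wider domain lay in 14 olfactory receptor genes (1.27%, beside 11.6% of all). Vomeronasal receptor genes held a short domain in 5 of 349 cases (1.43%, beside 2.28%) and a wider one in 39 (11.2%, beside 11.6%). Vmn1r47, Vmn2r114, Vmn2r13 and Vmn2r126 were among the 5. Genes of both receptor families are compact, with median lengths of 0.951 and 0.960 kb, against 17.6 kb for all protein-coding genes.

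Dazl alone of 37 germline genes held a short domain, at the start shown above, and this share (2.70%) is near the 2.28% of all protein-coding genes. A wider domain lay in 12 of the 37 (32.4%, beside 11.6% of all), and the median length of the 37 was 39.9 kb. Imprinted genes held short domains in 4 of 43 cases (9.30%) and wider ones in 8 (18.6%), beside the same 2.28% and 11.6%. Those 2 background shares are for protein-coding genes, while only 36 of the 43 were protein-coding. The median length of the 43 was 26.6 kb, against 17.6 kb for all protein-coding genes, and the part of length was not tested. Kcnq1ot1 and the Kcnq1 gene around it share the same domain of 900 bases (chromosome 7), so 3 separate domains stand behind the 4. The others were Rasgrf1 and Snrpn, with 450 bases each. Genes of clustered secreted and drug-metabolising proteins held a short domain in 11 of 196 cases (5.61%, beside 2.28%) and a wider one in 41 (20.9%, beside 11.6%). Each of the 11 held 1, such as the cytochrome P450 genes Cyp4f15, Cyp4v3 and Cyp3a59 and the sulfotransferase gene Sult2a8. Of 77 ribosomal protein genes 1, Rpl15, held a short domain (1.30%, beside 2.28%), of 300 bases, and 2 held a wider one (2.60%, beside 11.6%). Of 57 clustered protocadherins, whose bodies overlap, none held a short domain and 13 a wider one (22.8%, beside 11.6%). Their median length was 90.3 kb. Of 26 genes of the 2-cell stage none held a short domain and 2 a wider one (7.69%), and 79 histone genes had neither. The median lengths of these 2 lists were 4.75 and 0.504 kb. Beside a background of 2.28%, finding no short domain in lists of this size says little. Of 44 long neuronal genes, 25 held a short domain (56.8%, beside 2.28%) and all 44 a wider one (100%, beside 11.6%). Their median length was 1198 kb, against 17.6 kb for all protein-coding genes, and the part of length was not tested.

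Some small structural RNA genes, chosen after their values were seen, lay almost wholly under short domains. Of all 46714 annotated autosomal genes, 1.61% shared a base with a short domain and 10.9% with a wider one. Of 60 annotated ribosomal RNA genes on the autosomes, 3 lay wholly inside a short domain and none touched a wider one. Each is a 5S gene copy of 119 bases. LOC115490001 (chromosome 4, 53860652 to 53860770) lay in a domain of 150 bases (53860651 to 53860800), n-R5s33 (chromosome 16, 33001903 to 33002021) in one of 300 bases and n-R5s194 (chromosome 3, 4338998 to 4339116) in one of 750 bases. Both Rn7s genes on chromosome 12, which encode the RNA of the signal recognition particle, met a short domain. Rn7s1 (69159295 to 69159593) was covered over 97.99% by a domain of 300 bases (69159301 to 69159600), and Rn7s2 (69361183 to 69361481) lay wholly inside one of 450 bases. These genes have many near-identical copies, so reads from one copy cannot be told apart from those of another, and the part of that in the domains was not tested. In 4 larger classes more genes met a wider domain than a short one. Of 924 small nuclear RNA genes 3 met a short domain and 25 a wider one, and of 1276 small nucleolar RNA genes 2 and 38 did. No short domain met any of 1136 microRNA or 386 transfer RNA genes, of which 12 and 3 met a wider one.

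In 1 Mb windows, short domains were thinly spread. Of 2413 windows, 1090 held none, 812 held 1, 356 held 2, and 5, 6 and 7 were held by 7, 5 and 1 windows. The window from 8 to 9 Mb of chromosome 1 held the most, 7 of 37 domains, and 6 of them were those of Sntg1. The windows at 60 to 61 Mb of chromosome 4, whose 10 protein-coding genes are all Mup urinary protein genes, and at 6 to 7 Mb of chromosome 3 held 6 short domains each, of 45 and 33 in all. None of these had its midpoint in a protein-coding gene of the window. At 66 to 67 Mb of chromosome 8, 6 of 17 domains were short (35.3%), with 2 in Marchf1, whose other 2 lie in the window before, and 1 in Tktl2. At 20 to 21 Mb of chromosome 16, 6 of 21 were short among 24 protein-coding genes, and 1 of these lay in Eif4g1, a translation initiation factor gene.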

How the data were processed

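Chromatin was precipitated with an H4K20me3 antibody from 24 μg of chromatin with 1.5 μg of Drosophila chromatin added, per the labels' protocols, in 12 samples, 3 at each of 4 times. The submitters' processing notes name Bowtie2 2.3.4.1, SAMtools 1.1, deepTools and bedtools, and the builds mm10, mm9, GRCm38 and dm6, with no role for each. The deposited list holds chromosome, start and end only. RSEG is named in the file name, and the sources used here do not say which libraries, settings and filters made the list. All autosomal boundaries lay on a 150-base grid, so an interval under 1 kb spans at most 6 steps of it. Whether a step is the caller's own bin is not stated.

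Positions were printed 1-based. Domains that start before 3 Mb (4 on autosomes) were left out. Genes came from a RefSeq table of GRCm38.p6 (46714 autosomal genes), and start windows from its sequence table, which has no entries for chromosome 18. A domain was placed by its midpoint, and a gap was the distance between facing edges. Gene lists (15) held protein-coding and long noncoding genes. Named were the 10 protein-coding genes with the most short midpoints, the 10 most covered, up to 4 of each list, the methyltransferase genes, the 5 fullest windows, the 3 longest runs, the 5 most isolated domains and start windows wholly inside a domain. Other genes at start windows, the run beside Setdb1 and small RNA genes were named after their values were seen. One gene that these rules name is not reported here. The members and lists were chosen with earlier results of these data known. Measures of gaps, neighbour width and gene placement were tested on 600 simulated domains with known answers, and 0 of 7 came out wrong. The simulated domains lay farther apart than most real ones. The shares in the first 10 Mb, in dense windows and at start windows were not among the 7. Python 3.11.15, numpy 2.4.6, pandas 2.3.3 and scipy 1.17.1 were used.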

Additional observations from a re-analysis of the deposited data

How the results depend on the processing

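Each of the 46 alternatives kept the direction of the main value. The main values were 5.78 percentage points for the gene-body share, 1.33 for the ratio of median gaps, -2.51 points for the first 10 Mb, 0.676 for the ratio of distances to a gene end, -7.11 points for dense windows and 1.70 points for a short nearest neighbour. With short domains taken as under 750 bases, the gene-body difference was 11.3 points, the gap ratio 1.49, the distance ratio 0.527 and the dense-window difference -10.5 points, and with under 1500 bases the distance ratio was 0.784. Without short domains within 5 kb of a wider one, the gap ratio was 1.71 and the dense-window difference -9.83. Against domains of 1 to 2 kb alone the values were 3.23 points for genes, 1.14 for gaps, -0.925 for the first 10 Mb and -3.04 for dense windows. Distances between midpoints gave a gap ratio of 1.19. The first 5 Mb and 20 Mb gave -1.03 and -3.95 points, and windows of 15 or more domains gave -9.42. The neighbour difference ran from 1.12 to 2.97 points. Its lowest value, with short domains under 750 bases, had a counting interval of -0.161 to 2.775 points. The intervals for the first 10 Mb against domains of 1 to 2 kb (-2.13 to 0.400) and for the first 5 Mb (-1.94 to 0.0103) also included 0. Leaving out chromosomes 8 and 11, chosen after seeing the data, kept every value inside the counting interval of its main value. These counting intervals treat short domains as independent and hold the value of wider domains fixed. They are neither a test of a difference nor a replicate error. No paired analysis was possible because the list names no sample. Leaving out a replicate was not possible for the same reason, and the depth behind each domain is unknown.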

Other observations

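Chromosome X held few short domains. Of its 2443 domains 40 were under 1 kb, or 1.64% of those past 3 Mb, against 7.98% on the autosomes, where the lowest share was 6.08% on chromosome 6. None of the 4 domains on Y was short.

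The 33 domains of 150 bases span a single step of the 150-base grid, and 19 had the midpoint in a protein-coding gene. Beside Alb, Robo1 and Tmem38b, whose body holds the 5S gene copy LOC115490001, they included Prkdc, which encodes the catalytic subunit of DNA-dependent protein kinase, C1qbp, Ybx3, Acacb, Auts2 and Spred2. These genes were chosen after their values were seen.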
